A study of Procambarus virginalis with 6 samples.

Results

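The 50 features described here were the most enriched in a small group of hemocytes from 1 control animal, Ctrl1, and their level and co-detection were then followed in the other 5 animals. The cells of that group were picked by 2 features, WNGS01092210.1242857 and WNGS01092210.1271499, which are called the anchor features below. A cell of Ctrl1 with at least 2 unique molecular identifiers (UMIs, each standing for 1 captured RNA molecule) of the 2 anchor features together was called anchor-positive, which held for 201 of 5318 cells. Among 1382 features with 50 or more UMIs in Ctrl1 (of 72982 features in all), the 50 with the highest ratio of CPM (UMI counts scaled to a fixed total per group of cells) plus 10 in the anchor-positive cells to CPM plus 10 in the other cells were taken, without the anchor features. The ratio in Ctrl1 therefore chose the 50 features and is no result, whereas their values in the other 5 libraries were not used in the choice.

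The study sequenced RNA of single hemocytes from the hemolymph of the marbled crayfish, *Procambarus virginalis*, on the 10x Genomics platform. The 3 control animals (Ctrl1 to Ctrl3) had received double-stranded RNA against GFP (dsGFP), and the 3 *Dnmt1* knockdown animals (KD1 to KD3) double-stranded RNA against the DNA methyltransferase gene *Dnmt1*. All 6 carried an injection of double-stranded RNA and were bled 28 days post injection (dpi), with 1 library per animal. The features carry identifiers without gene names, so the level of *Dnmt1* was not checked and no function is given to any feature.

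Hemocytes are the circulating cells of the crustacean immune system, and they also carry out wound sealing, encapsulation and melanization. Semigranular cells (SGCs) and granular cells (GCs) are the main immune types, and hemocyte-derived neuronal precursors (HDNPs) are cells of the same origin thought to supply neurons. Prohemocytes are the immature cells from which the others arise in the hematopoietic tissue, and a few of them circulate. The anchor features lead the smallest cluster of Ctrl1, and the study labelled its smallest group of cells putative circulating prohemocytes (CPHs). With 2 marker features and no gene names this label cannot be checked here, and the cells are called anchor-positive. The list names GC, SGC and HDNP used below follow only the rank in size of the Ctrl1 clusters that the features lead. Marker identifiers shown by the study, read in their printed order, matched these clusters in the reverse order, so each list may belong to another cell type than its name says.

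Libraries differed in size and depth, and barcodes recurred between some of them. Cells with 100 to 2000 features numbered between 622 and 5318 per library, with median depths between 223 and 1258 UMIs per cell. Ctrl2, Ctrl3, KD1 and KD2 shared between 73 and 484 cell barcodes with another library, whereas Ctrl1 shared none and KD3 shared 1. Among anchor-positive cells, 14 of 18 in Ctrl2, 3 of 5 in Ctrl3, 6 of 16 in KD1 and 3 of 6 in KD2 carried such a shared barcode.

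In Ctrl1 the 50 features had a median ratio of 3.55, against 0.882 over the 1382 eligible features. The first of them stood apart from the rest. WNGS01092210.1271482 had a ratio of 60.8, with 61 of its 68 UMIs in anchor-positive cells, and the second, WNGS01164858.2237184, had a ratio of 6.54. The identifier of WNGS01092210.1271482 names the same scaffold as both anchor features, and its number is 17 below that of the second anchor. Of the 51 cells of Ctrl1 with a UMI of this feature, 44 were anchor-positive and 35 held a UMI of the second anchor. The ratio then declined slowly to 2.69 for WNGS01095046.1297789_0_covsplit and 2.67 for WNGS01163813.2087304_1_covsplit, the last 2 features inside the limit. The first 2 outside it, WNGS01135237.1646778_1_covsplit and WNGS01004946.333826_0_covsplit, had ratios of 2.65 and 2.64, so nothing separates the 50 from the features that follow.

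Most of the 50 features rested on few molecules. A total of 35 had fewer than 20 UMIs in all anchor-positive cells of Ctrl1 together, and 3 had more than 100. These 3 were WNGS01111181.1434873 with 1629 UMIs, WNGS01042707.854656_0_covsplit with 272 and WNGS01145354.1725344_1_covsplit with 233. The first alone was detected in 99.0% of the anchor-positive cells of Ctrl1 and in 79.3% of its other cells, so it was a common feature at a higher level and not one restricted to the group. Ranks 3 to 6 and 9, WNGS01028930.746412_2_covsplit, WNGS01165523.2375069_17_covsplit, WNGS01000945.105023_0_covsplit, WNGS01000543.58022_0_covsplit and WNGS01162647.1987542, had between 13 and 26 UMIs there, with ratios between 4.35 and 5.85. In all 58 anchor-positive cells of the other 5 animals WNGS01000543.58022_0_covsplit had no UMI. The identifiers of the 50 features named 41 scaffolds, and 15 of them shared a scaffold with another of the 50.

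Anchor-positive cells were less frequent in each of the other animals than in Ctrl1. Their share was 3.78% in Ctrl1 (exact binomial 95% interval 3.28 to 4.33%), 1.51% in Ctrl2 (0.894 to 2.37%) and 0.804% in Ctrl3 (0.262 to 1.87%). In the knockdown animals it was 1.82% in KD1 (1.04 to 2.93%), 0.945% in KD2 (0.348 to 2.05%) and 0.453% in KD3 (0.241 to 0.774%). These intervals, like all intervals given here, cover counting error only. Because deeper cells reach 2 UMIs more easily, all cells were also thinned to 150 UMIs, and the shares were then 2.56% (Ctrl1), 0.0836% (Ctrl2), 0.322% (Ctrl3) and 0.0697% (KD3), with no such cell left in KD1 and KD2. The mean share over Ctrl2 and Ctrl3 was 1.15% ± 0.496 (SD, n = 2) and that over the knockdown animals 1.07% ± 0.69 (SD, n = 3). The difference of -0.0831 percentage points was within this spread (exact two-sided permutation test, p = 0.9), in a design whose smallest possible p is 0.1, and without Ctrl2 or without KD3 its sign turned.

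The second anchor feature was rare outside Ctrl1. The first had 966 UMIs in Ctrl1 and 106, 44, 95, 32 and 98 UMIs in Ctrl2, Ctrl3, KD1, KD2 and KD3. The second had 351 UMIs in Ctrl1, none in either other control, and 5 (KD1), 1 (KD2) and 3 (KD3) after knockdown. Of the 191 cells of Ctrl1 with the second anchor, 154 also held the first, and of the 8 such cells elsewhere 4 did, 3 of the 4 in KD1, 1 of the 3 in KD3 and none of the 1 in KD2. Outside Ctrl1 a cell was thus anchor-positive almost always through the first anchor feature.

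Over all cells, the 50 features summed to a similar level in 5 of the 6 libraries and to a lower one in KD3. Among the controls the summed level was 107 UMIs per 10000 UMIs (Ctrl1), 123 (Ctrl2) and 115 (Ctrl3), and among the knockdown animals it was 112 (KD1), 121 (KD2) and 42.6 (KD3). It averaged 103 ± 33.8 over the 5 libraries other than Ctrl1 (SD, n = 5). The sum was carried by 3 features, WNGS01042707.854656_0_covsplit, WNGS01111181.1434873 and WNGS01164858.2237714_2_covsplit, which had the highest mean level over these 5 libraries. The other 47 together had 35.9 UMIs per 10000 (Ctrl1), 43.8 (Ctrl2) and 34.0 (Ctrl3) in the controls, and 51.7 (KD1), 30.01 (KD2) and 8.90 (KD3) after knockdown. Without the anchor-positive cells the level in the other 5 libraries remained within 42.7 to 125, so these features were present in their ordinary cells.

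Single features had quite different patterns across the animals. WNGS01042707.854656_0_covsplit was lowest in Ctrl1, at 9.29 UMIs per 10000, against 29.4 (Ctrl2), 49.5 (Ctrl3), 33.3 (KD1), 67.4 (KD2) and 19.98 (KD3). WNGS01111181.1434873 was highest in Ctrl1, at 58.4, followed by 40.2 (Ctrl2), 23.3 (Ctrl3), 17.3 (KD1), 16.7 (KD2) and 12.3 (KD3). WNGS01145354.1725344_1_covsplit had 8.36 in Ctrl1 and between 0.472 and 2.32 in the other libraries. All 3 were among the 10 with the highest ratio in Ctrl1, and the order of the libraries differed between them.

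**Figure D1:**
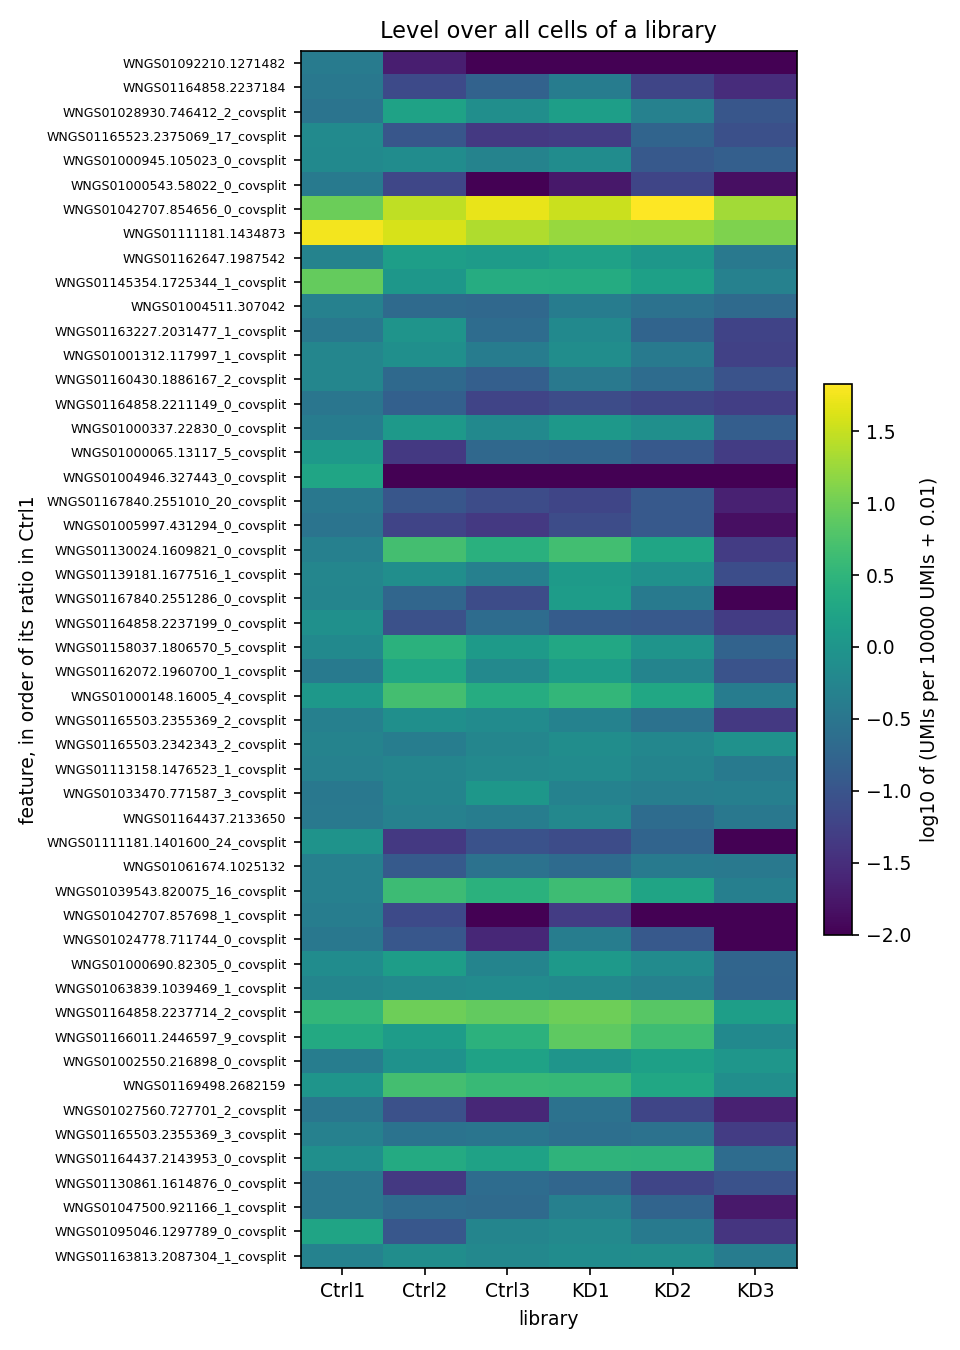
Level of each of the 50 features (rows, in order of their ratio in Ctrl1) over all cells of each of the 6 libraries (columns), as log10 of UMIs per 10000 UMIs plus 0.01. The 2 brightest rows are WNGS01042707.854656_0_covsplit and WNGS01111181.1434873, the row of WNGS01004946.327443_0_covsplit is dark outside Ctrl1, and the KD3 column is the darkest for 35 of the 50 rows.

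A pair of features was nearly confined to Ctrl1. WNGS01004946.327443_0_covsplit had 317 UMIs in 301 cells of Ctrl1 and none in the other 5 libraries, which together held 6310011 UMIs. Its level of 1.75 UMIs per 10000 was at least 368-fold higher than the limit of 3 counts over those 5 libraries. It was found in 20.4% of the anchor-positive cells of Ctrl1 and in 5.08% of its other cells, so it was not limited to the group. WNGS01092210.1271482, with 0.376 UMIs per 10000 in Ctrl1, had 2 UMIs elsewhere, both in Ctrl2. These were the only 2 of the 1382 eligible features with fewer than 5 UMIs in the other 5 libraries. By mean level over those libraries the next lowest was WNGS01042707.857698_1_covsplit, with 16 UMIs and a mean of 0.0199 per 10000, whereas WNGS01000543.58022_0_covsplit had fewer UMIs, 13, and a mean of 0.0242.

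In total, 20 of the 50 features (40.0%) had their highest level in Ctrl1, against 23.4% of the eligible features. The rule chose the 50 by their level in a group of Ctrl1 cells that was less frequent in the other libraries. This count therefore leans on the choice, and nothing is read from it. KD3 held the lowest level of 35 (70.0%), against 59.6%. In KD3 the 6 features of the GC list, described below, made up 2918 of 10000 UMIs in the cells that were not anchor-positive, against 538 to 1441 in the other 5 libraries. Whether this composition has a part in the lower level of the 50 features was not tested. In summed droplet data, fewer cells with a feature and less RNA of it per cell cannot be told apart.

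The main question was whether the 50 features mark the anchor-positive cells of the other animals as they do in Ctrl1. Summed over the 50 features and all anchor-positive cells of a library, they did not. In Ctrl1 the summed level was 410 UMIs per 10000 in anchor-positive cells (exact Poisson 95% interval 396 to 425) and 94.4 in other cells. In Ctrl2 it was 65.6 (59.97 to 71.6) and 125, in Ctrl3 67.0 (52.7 to 84.0) and 116. In KD1 it was 79.9 (71.5 to 88.9) and 113, in KD2 109 (85.1 to 137) and 121, and in KD3 23.6 (17.5 to 31.2) and 42.7. The anchor-positive cells thus held the lower level in each of the 5 other animals, although in KD2 the interval included the level of the other cells. These cells were also deeper than the rest in 4 of the 5, with median depths of 3590.5 against 1127 UMIs in Ctrl2 and 1122.5 against 222 in KD2 as the widest gaps, and 668 against 744 in Ctrl3. When cells were thinned to 150 UMIs, this order turned in KD1, with 133 in anchor-positive and 108 in other cells. All these levels are shares of all UMIs. Features of the GC list, described below, took up more of that total in the anchor-positive cells of each of the 5 animals. In KD1 they made up 4366 of 10000 UMIs there, against 538 in other cells. The order with the GC list left out of the total was not tested.

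**Figure D2:**
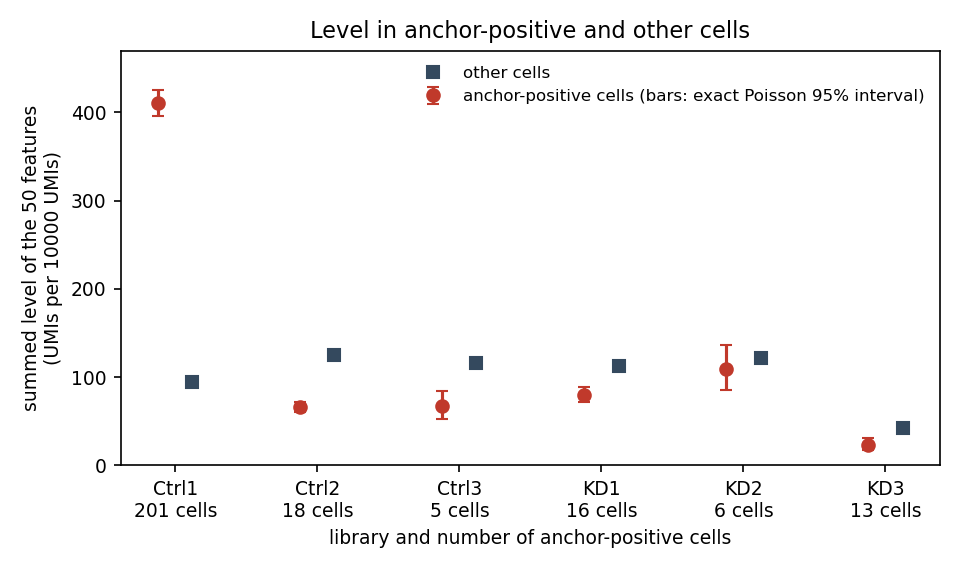
Summed level of the 50 features in UMIs per 10000 UMIs (vertical axis, linear from 0) in the anchor-positive cells (circles, with exact Poisson 95% intervals that cover counting error) and the other cells (squares) of each library. Ctrl1, in which the features were chosen, stands at 410 against 94.4, and in the other 5 libraries the circle lies below the square.

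Taken feature by feature, the 50 were compared with the eligible features. The median log2 ratio of anchor-positive to other cells, on CPM plus 10, was 1.83 for the 50 features in Ctrl1, where the rule set it. It was -1.09 (Ctrl2), -1.32 (Ctrl3), -0.89 (KD1), -1.41 (KD2) and -0.48 (KD3), and averaged -1.04 ± 0.37 over these libraries (SD, n = 5). The eligible features had medians of -1.07, -1.29, -1.01, -2.04 and -1.19 in the same libraries. Values below 0 were therefore also the background of the eligible features. Of the eligible features, 82.5%, 52.9%, 78.9%, 38.2% and 44.5% had a UMI in the anchor-positive cells of these libraries. Why the medians lay below 0 was not tested. In Ctrl2, Ctrl3 and KD1 the 50 features were close to the eligible ones, and in KD2 and KD3 they lay above them. Averaged over the 5 libraries the 50 lay 0.29 above the eligible features, but on CPM plus 1 the difference was -0.40, and the eligible features were not matched to the 50 in level.

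Few of the 50 exceeded a 2-fold ratio outside Ctrl1. In Ctrl1 the rule made it all 50, against 6.95% of the eligible features. In Ctrl2 it was 2 features, against 3.55% of the eligible features. In Ctrl3 and KD2 it was 3 each, against 8.03% in both, in KD1 it was 4, against 4.34%, and in KD3 it was 5, against 6.01%. These counts of the 50 were near the backgrounds. No feature had a ratio above 1 in all 5 libraries, and 29 had one in none. The feature over 2-fold most often was WNGS01165523.2375069_17_covsplit, the fourth by ratio in Ctrl1, which exceeded 2-fold in 4 of the 5 libraries. It rested on 4 UMIs in the anchor-positive cells of Ctrl2, 2 in KD1, 1 in KD2 and 1 in KD3, with none in Ctrl3. It did not pass the filter on low counts of the test below, and was higher there only without that filter (log2 change 2.60 ± 0.59, edgeR adjusted p = 0.0103) or without KD2 (3.20 ± 0.93, edgeR adjusted p = 0.0178). The other features over 2-fold, each in 1 or 2 libraries, were named after their values were seen. They were WNGS01092210.1271482 in Ctrl2, WNGS01160430.1886167_2_covsplit, WNGS01113158.1476523_1_covsplit and WNGS01165503.2355369_3_covsplit in Ctrl3, WNGS01111181.1401600_24_covsplit and WNGS01024778.711744_0_covsplit in KD1, and WNGS01063839.1039469_1_covsplit in KD2. WNGS01164858.2237184 was over 2-fold in KD1 and KD3, WNGS01028930.746412_2_covsplit in KD2 and KD3, and WNGS01000337.22830_0_covsplit and WNGS01000148.16005_4_covsplit in KD3. All of them had 6 or fewer UMIs in the anchor-positive cells concerned except WNGS01024778.711744_0_covsplit, with 31.

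**Figure D3:**
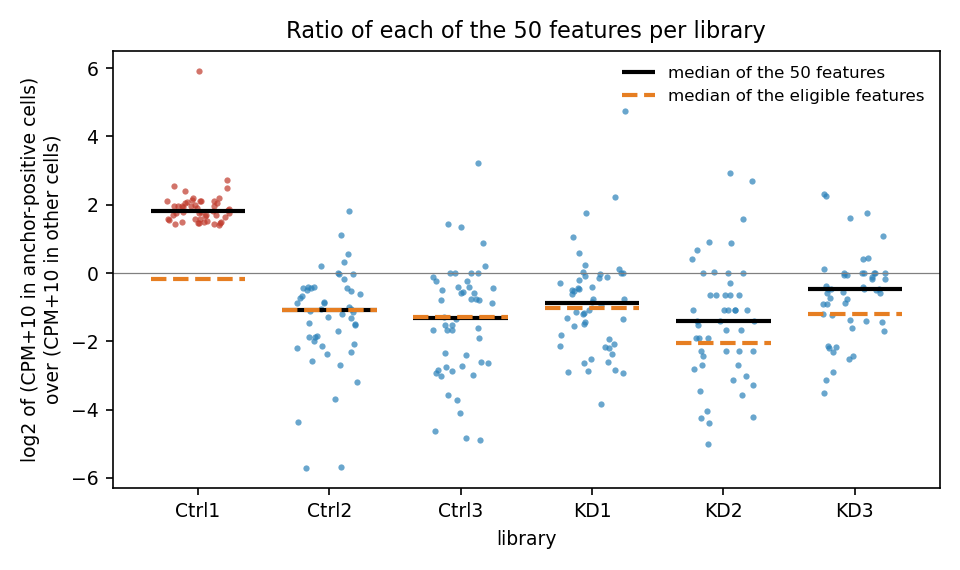
Log2 ratio of CPM plus 10 in anchor-positive cells to CPM plus 10 in other cells (vertical axis) for each of the 50 features (points) in each library, with the median of the 50 (solid line) and of the 1382 eligible features (dashed line). The medians of the 50 features are 1.83 in Ctrl1 and between -1.41 and -0.48 in the other libraries, and the highest point in KD1 is WNGS01024778.711744_0_covsplit.

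The difference between the cell classes was tested over animals with the quasi-likelihood test of edgeR on counts summed per animal, with the animal as a block and p-values adjusted over all features tested. Of 1541 features that passed the filter on low counts, 80 (5.19%) were higher and 168 (10.9%) lower in the anchor-positive cells of the other 5 animals. The filter kept 19 of the 50 features, of which none was higher and 4 were lower. At an unadjusted p under 0.05, 7 of the 19 were lower and none higher, against 21.2% and 6.88% of all features tested, and with DESeq2 none was called in either direction. The median log2 change was -0.67 over the 19 features, -0.67 over the 981 eligible features tested and -0.54 over all features. This last shift depends on the scaling and was -0.28 with the size factors of DESeq2 in edgeR, and changes are to be read against it.

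The 4 lower features were all present in the ordinary cells of the other animals and at 0 in the anchor-positive cells of 2 to 4 of the 5. WNGS01130024.1609821_0_covsplit had 513, 272, 475, 181 and 3.76 CPM in the other cells of Ctrl2, Ctrl3, KD1, KD2 and KD3, and 95.7 CPM in the anchor-positive cells of KD1 but 0 in those of the other 4 animals. Its log2 change was -3.30 ± 0.74 (SE, edgeR adjusted p = 0.000228). WNGS01158037.1806570_5_covsplit had 290, 122, 201, 98.9 and 15.9 CPM in the other cells, and in anchor-positive cells 13.1 in Ctrl2, 23.9 in KD1 and 0 elsewhere. Its log2 change was -3.31 ± 0.87 (edgeR adjusted p = 0.00209). Both were lower in the anchor-positive cells of 5 of 5 animals by these values, but few of the animals can show it. A count of 3 in the anchor-positive cells amounts to 39.4 CPM (Ctrl2), 268 (Ctrl3), 71.7 (KD1), 453 (KD2) and 144 (KD3). For all 4 features a lower level was thus detectable in Ctrl2 and KD1 and not in KD2 and KD3, and in Ctrl3 the level in the other cells was above this limit for WNGS01130024.1609821_0_covsplit alone.

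WNGS01000148.16005_4_covsplit had 505, 234, 350, 198 and 39.7 CPM in the other cells and 71.7 in the anchor-positive cells of KD1, 96.3 in those of KD3 and 0 in the rest. Its value was lower in 4 of 5 animals, with a log2 change of -2.59 ± 0.69 (edgeR adjusted p = 0.00265). WNGS01145354.1725344_1_covsplit, the third most abundant of the 50 in the anchor-positive cells of Ctrl1, had 110, 234, 233, 154 and 47.7 CPM in the other cells. In anchor-positive cells it had 13.1 in Ctrl2, 89.3 in Ctrl3, 47.8 in KD1 and 0 in KD2 and KD3, and was lower in 5 of 5 animals, with a log2 change of -2.01 ± 0.71 (edgeR adjusted p = 0.0349). A fitted change against groups at 0 depends on the prior count and is no bound. Without Ctrl2, and also without the cells whose barcode occurs in another library, none of the 50 was called (smallest edgeR adjusted p of 0.0696 and 0.2). Of the 58 cells, 32 also had 30% or more of their UMIs from the GC list described below, and among cells under that limit only WNGS01130024.1609821_0_covsplit remained called (edgeR adjusted p = 0.0298).

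No difference between knockdown and control animals in this contrast passed the threshold. The interaction of cell class and group had 0 of 1541 features past the threshold (0%, edgeR), and DESeq2 gave 0 as well. At an unadjusted p under 0.05 there were 60 (3.89%). Of the 50 features, 19 were tested, and 4 of these were among the 60, all with a positive change. WNGS01130024.1609821_0_covsplit, WNGS01162072.1960700_1_covsplit and WNGS01000148.16005_4_covsplit, all among the 4, had 0 UMIs in the control anchor-positive cells. Their fitted changes are no measure of size. Only 2 control animals with 18 and 5 anchor-positive cells entered this test.

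In the other animals the anchor-positive cells together held more of another marker list, the GC list, than the other cells. This list holds 6 features that led the Ctrl1 cluster whose rank in size is that of the study's GCs, and none of the lists used here shares a feature with the 50. In Ctrl1 the GC list made up 1242 of 10000 UMIs in anchor-positive and 1344 in other cells, although per cell its median share was higher in the anchor-positive cells, at 6.27% against 2.62%. In Ctrl2 the values were 3826 and 740, in Ctrl3 2373 and 969, in KD1 4366 and 538, in KD2 4702 and 1441 and in KD3 6637 and 2918. All 6 features of the list were detected in the anchor-positive cells and also in the other cells of every library, so only their level differed. The single SGC feature, from the largest cluster, was between 0 and 0.717 UMIs per 10000 in the anchor-positive cells of the 5 other libraries and between 9.87 and 68.3 in their other cells, against 20.04 and 58.8 in Ctrl1. The 2 HDNP features were between 0 and 1.79 UMIs per 10000 in these cells and at 6.49 in Ctrl1.

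The share of UMIs from the GC list varied widely among the anchor-positive cells. In KD1 no cell lay between 4.38% and 40.8%, and in KD3 none between 6.82% and 55.7%, whereas in Ctrl2 the cells ran from 1.03% to 57.6% with no gap near 30%, and in KD2 and Ctrl3 the highest cells under 30% had 29.1% and 26.6%. A limit of 30% therefore cuts through a range in Ctrl2. Cells with at least 30% of their UMIs from it, a limit set after seeing the data, were 12 of 18 in Ctrl2, 2 of 5 in Ctrl3, 6 of 16 in KD1, 3 of 6 in KD2 and 9 of 13 in KD3, but 6 of 201 in Ctrl1. Over all cells their share was between 5.27% and 7.72%, and 17.4% in KD3. Of these cells, 11 of the 12 in Ctrl2, 1 of the 2 in Ctrl3, 6 of the 6 in KD1 and 2 of the 3 in KD2 had a barcode that another library also held. Among all cells a shared barcode was found in 5.69% in Ctrl2, 33.8% in Ctrl3, 24.4% in KD1 and 36.4% in KD2. Whether the shared barcodes have a part in these cells was not tested.

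In the 32 such cells of the other 5 libraries, the 50 features made up a median of 0.327% of a cell's UMIs, and in the 6 of Ctrl1 1.04%. In the remaining 195 anchor-positive cells of Ctrl1 the median was 4.61%, and the values ranged from 0.546% to 8.35%. The other 26 cells of the 5 libraries had a median of 1.48%, with a highest value of 3.31%, and the 16 of them outside KD1 a median of 0.734%.

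**Figure D4:**
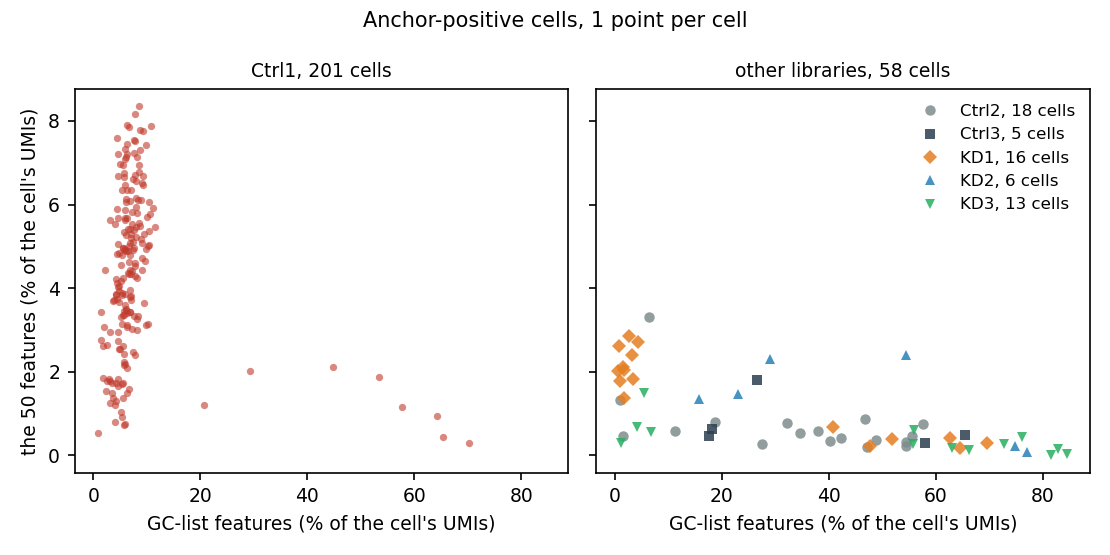
Each anchor-positive cell of Ctrl1 (left, 201 cells) and of the other libraries (right, 58 cells), by the percentage of its UMIs from the GC list (horizontal axis) and from the 50 features (vertical axis), on the same scales. In Ctrl1 all but 6 cells lie under 30% of GC-list UMIs and reach 8.35% for the 50 features, and on the right the 10 cells of KD1 at the left edge lie between 1.37% and 2.85%.

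In KD1 the summed level of the 50 features was higher in a part of the anchor-positive cells, carried mostly by a few features. Its 16 cells fell into 10 with 0.728% to 4.38% of their UMIs from the GC list and 6 with 40.8% to 69.7%. None of the 10 had a shared barcode, and all 3 KD1 cells with both anchor features were among them. In these 10 cells the 50 features made up 219 UMIs per 10000 (exact Poisson 95% interval 191 to 249), against 119 in the other KD1 cells under the same limit. The same comparison gave 131 (115 to 149) and 133 in Ctrl2 over 6 cells (1 of which held 159 of the 230 UMIs), and 70.8 (55.2 to 89.5) and 129 in Ctrl3 over 3 cells. It gave 165 (125 to 214) and 139 in KD2 over 3 cells, and 68.4 (38.3 to 113) and 60.7 in KD3 over 4 cells. Of the intervals in these 5 libraries, only that of KD1 lay above the level of the other cells. With 1 animal showing it, and cells chosen after their values were seen, this is a description of that library.

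The difference in KD1 came mostly from 4 of the 50 features. WNGS01024778.711744_0_covsplit had 30 UMIs in 9 of the 10 cells and 23 UMIs in the 822 other KD1 cells under the limit, a ratio of 99.8. It led all features with 20 or more UMIs in these cells, yet in Ctrl1 it had only 8 UMIs in 201 anchor-positive cells and a ratio of 3.02. In Ctrl2, Ctrl3, KD2 and KD3 it had no UMI in any anchor-positive cell. WNGS01164858.2237714_2_covsplit had 29.1 UMIs per 10000 in the 10 cells and 10.2 in the others, WNGS01111181.1434873 42.6 and 17.4, and WNGS01042707.854656_0_covsplit 57.1 and 35.8. The remaining 46 features summed to 61.0 and 55.3 UMIs per 10000 in KD1, against 149 and 35.0 in Ctrl1. Features over 2-fold were 9 of the 50 in the 10 KD1 cells, against 14.3% of the eligible features, which is near that background. The median log2 ratio in these cells was -0.45 for the 50 and -0.35 for the eligible features. As a set, the 50 features thus did not mark these cells. Across the other 5 animals, WNGS01024778.711744_0_covsplit did not pass the filter on low counts. Its log2 change was 3.72 ± 0.40 without the filter and 5.04 ± 0.69 with at least 1 anchor UMI. All 31 of its UMIs in anchor-positive cells (2 or more anchor UMIs) of these animals were in KD1. These fits thus lean on the KD1 cells in which the feature was singled out, and are no support across animals.

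Cell-to-cell co-detection was measured at 150 UMIs per cell, and 40 shallower cells in Ctrl1 and 65 in KD2 were dropped. Over all pairs of the 50 features, the number of cells with UMIs of both was divided by the number expected from the single shares. This ratio was 1.18 (Ctrl1), 1.07 (Ctrl2), 1.15 (Ctrl3), 1.10 (KD1), 1.06 (KD2) and 1.23 (KD3), and over all pairs of eligible features it was between 1.02 and 1.06. At 100 UMIs per cell it was 0.991 in Ctrl2, below the 1.02 of the eligible features, and above theirs in the other libraries (1.04 against 1.02 in KD1). The eligible features were not matched to the 50 in level. Points of one library share its cells and depth, so these ratios are given with no test.

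Without the anchor-positive cells the ratio dropped to 1.03 in Ctrl1, the level of the eligible features there, but it stayed at 1.07, 1.15, 1.10, 1.06 and 1.23 in the others. Without the 3 most abundant features it was 1.34 in Ctrl1 and 1.01 once its anchor-positive cells were left out. In Ctrl2, Ctrl3, KD1, KD2 and KD3 it was 1.34, 1.37, 1.21, 1.24 and 1.10, and 1.34, 1.36, 1.22, 1.23 and 1.11 without the anchor-positive cells. A second random draw moved the ratio without these 3 features to 1.57 in Ctrl3 and 1.40 in KD3, which held few such pairs. In Ctrl1 the drop follows from the rule, which chose features enriched in those cells, and nothing is read from it. In the other animals the ratio was nearly the same with and without their few anchor-positive cells.

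The number of the 50 features found in a thinned cell was also counted, and in Ctrl1 it too follows from the rule. Anchor-positive cells of Ctrl1 held a mean of 3.51 of them and other cells 1.24. For Ctrl2, Ctrl3, KD1, KD2 and KD3 the means were 0.889, 1.20, 1.56, 1.33 and 0.538 in anchor-positive cells and 1.54, 1.43, 1.38, 1.36 and 0.646 in other cells. Cells with 3 or more of the 50 made up 69.2% of the anchor-positive and 9.45% of the other cells in Ctrl1. In the other libraries they were 0 of 18, 0 of 5, 18.8%, 33.3% and 0 of 13 of the anchor-positive cells (Ctrl2, Ctrl3, KD1, KD2, KD3) and 18.9%, 17.7%, 15.1%, 13.3% and 2.17% of the other cells. In a second random draw the shares of the anchor-positive cells were 50% in KD1, 0 in KD2 and 20% in Ctrl3, so no order is read from them. With 18, 5 and 13 cells, 3 cells would already make up 16.7%, 60% and 23.1%, so a count of 0 says little about the share.

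**Figure D5:**
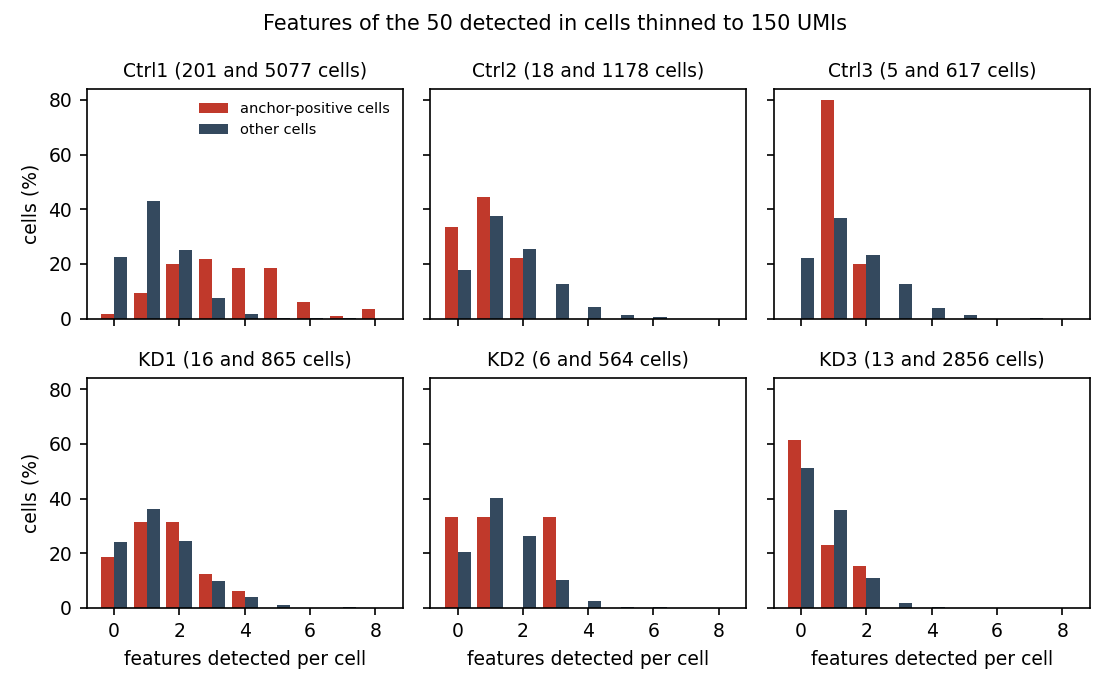
Percentage of cells (vertical axis) by the number of the 50 features detected per cell after thinning to 150 UMIs (horizontal axis), for anchor-positive cells (red) and other cells (dark) of each library, with the numbers of cells above each panel. In Ctrl1 the anchor-positive cells are shifted to the right, with a mean of 3.51 against 1.24, and in the other libraries both kinds overlap.

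Among the 10 pairs found together most often in Ctrl1, counts in the other animals lay on both sides of those expected. WNGS01111181.1434873 and WNGS01145354.1725344_1_covsplit were found together in 416 thinned cells of Ctrl1, against 373 expected. In Ctrl2, Ctrl3, KD1, KD2 and KD3 the pair was found in 6, 9, 5, 3 and 5 cells, against 6.67, 7.52, 4.65, 2.51 and 5.02 expected. WNGS01042707.854656_0_covsplit and WNGS01145354.1725344_1_covsplit were found together in 114 cells of Ctrl1, against 81.5 expected, and in 6, 16, 7, 7 and 7 cells elsewhere, against 5.10, 14.6, 6.86, 7.39 and 8.47. WNGS01042707.854656_0_covsplit and WNGS01111181.1434873, the 2 most abundant, were found together in 181 cells of KD3, against 145 expected, but in 127 of Ctrl2, against 141. The pair of WNGS01111181.1434873 and WNGS01164858.2237714_2_covsplit was found in 177 cells of Ctrl1, against 166 expected, and in 18 of KD2, against 11. With WNGS01095046.1297789_0_covsplit the former was found in 10 cells of KD1, against 3.54, and with WNGS01166011.2446597_9_covsplit in 15 of KD3, against 7.10. These last pairs were named after their values were seen and rest on few cells.

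To see which cells held the 50 features outside Ctrl1, cells were sorted by the marker lists in the order HDNP, GC and SGC, with classes set after seeing the data and used as ranges of marker content, not as cell types. Cells with at least 30% GC-list UMIs had the lowest level of the 50 features in every library, at 51.1 UMIs per 10000 (Ctrl1), 56.7 (Ctrl2), 27.2 (Ctrl3), 34.4 (KD1), 33.1 (KD2) and 13.5 (KD3). This class is defined by UMIs of features outside the 50, so a low share of the 50 is partly set by its definition. Cells with 2 or more UMIs of the SGC feature had 117, 117, 113, 111, 129 and 67.9. Cells with none of the marker criteria had 119, 153, 148, 140, 148 and 59.1, the highest level of the 4 classes outside Ctrl1 except in KD3. Cells with 2 or more UMIs of the HDNP features had 127 (Ctrl1), 94.5 (Ctrl2), 65.0 (Ctrl3), 103 (KD1) and 93.6 (KD2), and the 5 such cells of KD3 had 75.7.

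Finally, knockdown was compared with control over all cells, with Ctrl1 left out because it had chosen the features. edgeR called 0 of 7746 features (0%), with 140 at an unadjusted p under 0.05, and DESeq2 called 1. Of the 50 features, 44 were tested and none was called. WNGS01165503.2355369_2_covsplit, named after its value was seen, was the only 1 of them with an unadjusted p under 0.05. Its level was 0.787 (Ctrl2) and 0.700 (Ctrl3) UMIs per 10000 against 0.497 (KD1), 0.265 (KD2) and 0.0331 (KD3), and the groups did not overlap. The log2 change was -1.41 ± 0.58 (SE, edgeR adjusted p = 0.9997).

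The levels of both groups did not overlap for 8 of the 50 features. All knockdown animals lay below Ctrl2 and Ctrl3 for 6 of the 50 (12%), against 7.96% of the eligible features, and above them for 2 (4%), against 2.24%. The 2 above were WNGS01004511.307042, with 0.202 and 0.183 against 0.391, 0.265 and 0.203 UMIs per 10000, and WNGS01165503.2342343_2_covsplit, with 0.416 and 0.567 against 0.745, 0.583 and 0.858. Among the 6 below was WNGS01111181.1434873, with a log2 change of -0.37 ± 0.70 (edgeR adjusted p = 0.9997). When all 6 libraries entered, the median log2 change of the tested features among the 50 was -0.82, against -0.30 over the eligible features and -0.04 over all features. Without Ctrl1 these medians were 0.00, 0.19 and -0.02. The lower median of the 50 features in knockdown animals was thus present with Ctrl1, the library that chose them, among the controls and not without it.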

How the data were processed

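Hemocytes of 3 control and 3 *Dnmt1* KD animals were sequenced per animal with 10x Genomics v3.1 chemistry. Reads, intronic ones included, were counted by the authors with Cell Ranger (7.0.0 in the matrix headers), and each deposited matrix holds whole UMI counts per feature and barcode, not normalized. The submitters' processing notes list Cell Ranger 4.0.0 and Seurat 4.3.0. The genome build and annotation are not given in the sources used here. The other deposited tables list features and barcodes.

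Cells with 100 to 2000 features were kept. No mitochondrial filter was applied, since features carry no names, and no doublet caller was run. Counts were summed per animal over anchor-positive and other cells (animals with at least 3 anchor-positive cells) or over all cells, and tested with edgeR 4.0.16 (TMM, filterByExpr, quasi-likelihood test, Benjamini-Hochberg adjustment over all features tested, threshold 0.05) in R 4.3.3, with DESeq2 1.42.0 as an alternative. The anchor features were left out of the first test. The fits were tested on simulated data. Knockdown and control groups are separate animals, so p-values of that comparison measure the spread between animals. Anchor-positive and other cells were compared within the same animals, so those p-values measure how their difference varies between animals. Cells were thinned without replacement to 150 UMIs with seed 1. Shares carry exact binomial and levels exact Poisson 95% intervals.

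The members and lists were chosen with earlier results of these data known. Named features were the 10 with the highest ratio in Ctrl1, members past 0.05 in a test, the 3 highest and 3 lowest by level in the other 5 libraries, and the 2 on each side of the limit of 50. Alternatives were other size factors, tools, filters, anchor limits, depths, member lists and samples, and leaving out each animal.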

Additional observations from a re-analysis of the deposited data

How the results depend on the processing

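The mean of the 5 median log2 ratios in the animals other than Ctrl1 moved from -1.04 to -2.74 with CPM plus 1, -0.22 with CPM plus 100 and -1.70 in thinned cells. The eligible features moved as well, from -1.32 to -2.34, -0.45 and -2.60, so the 50 lay above them by 0.29, by 0.23 with CPM plus 100 and by 0.90 in thinned cells, but not with CPM plus 1 (-0.40). Features of the 50 called higher were 0, but 2 without a filter on low counts and 1 with at least 1 anchor UMI. Those called lower were 4, but 15 without the filter, 7 with at least 1 anchor UMI, 0 with DESeq2, 0 without shared barcodes (4 animals, fewer cells) and 1 in cells under 30% GC-list UMIs, an alternative chosen after seeing the data. All features called numbered 248, but 164 with DESeq2, 816 without the filter, 151 with at least 3 anchor UMIs, 151 with at least 200 features per cell, 162 in thinned cells, 18 without shared barcodes and 78 under 30% GC-list UMIs. Leaving out 1 animal gave 0 to 1 features of the 50 higher (1 without KD2), 0 to 4 lower (0 without Ctrl2) and 161 to 227 features in all. The causes were not tested.

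Replicate numbers are shared by label only. Same-numbered libraries had correlations of -0.17, 0.09 and 0.10 between their deviations, and not every library correlated best with its own number, so the number does not pair them. With Ctrl1 left out, KD1 has no partner under a replicate block, which then compares only KD2 with Ctrl2 and KD3 with Ctrl3. With this block, knockdown against control gave 114 features called and 1 of the 50 (WNGS01130024.1609821_0_covsplit), in place of 0 and 0. Nothing is read from these calls. Without the replicate block for the animal, the contrast of cell classes gave 41 features called and 0 of the 50 lower. Averaged over KD2 minus Ctrl2 and KD3 minus Ctrl3, without KD1, the difference in share was -0.455 percentage points. Over all 6 libraries with the block, an alternative added later, 0 were called.

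Knockdown against control otherwise gave 1 feature with DESeq2 and 4 without the filter, and the interaction 0 to 1 when 1 animal was left out (1 without KD1). The difference in the share of anchor-positive cells turned from -0.0831 to 0.294 percentage points with at least 1 anchor UMI, 0.0853 with at least 3 and 0.746 with at least 200 features per cell, and ranged from -0.455 to 0.268 when 1 animal was left out. The mean summed level moved from 103 to 869 UMIs per 10000 for a list drawn from features with at least 100 UMIs (20 of the 50 shared), to 2852 for one drawn from cells with at least 200 features (15 anchor-positive cells, 3 of the 50 shared) and to 33.7 without the 3 most abundant features. That last choice, made after seeing the data, moved the mean co-detection ratio from 1.12 to 1.25. The other 73 alternative values for the comparisons were an equal or similar count, a difference of the same sign, or a mean that moved by less than the spread over libraries. The 58 anchor-positive cells outside Ctrl1 limit every contrast of cell classes.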
